A study of Mus musculus with 28 samples.

Results

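Genes of the circadian clock, 10 in all, were followed in tibialis anterior (TA) muscle of mouse models of centronuclear myopathy. They are 10 of the 55416 genes listed for one cohort and the 55359 listed for the other, and all 10 passed the filter on low counts in each cohort. The genes were taken by name: *Arntl*, *Clock*, *Per1*, *Per2*, *Per3*, *Cry1*, *Cry2*, *Nr1d1*, *Nr1d2* and *Dbp* (ENSMUSG00000055116, ENSMUSG00000029238, ENSMUSG00000020893, ENSMUSG00000055866, ENSMUSG00000028957, ENSMUSG00000020038, ENSMUSG00000068742, ENSMUSG00000020889, ENSMUSG00000021775 and ENSMUSG00000059824 in that order). RNA-seq was done on 28 mice of the C57BL/6N strain at 8 weeks of age, 4 in each of 7 groups. The Dnm2 cohort holds WT mice on placebo, WT mice on tamoxifen, and *Dnm2* S619L/+ mice, heterozygous for a point mutation of the dynamin 2 gene, on placebo or on tamoxifen. The Bin1 cohort holds WT mice on placebo and *Bin1* mck-/- mice on placebo or on tamoxifen. These mutants have a muscle-specific deletion of *Bin1*, the gene of amphiphysin 2. Tamoxifen, a ligand of estrogen receptors, was given in the diet, as was the placebo. No WT mouse of the Bin1 cohort received tamoxifen. Library input was 300 ng in the Dnm2 cohort and 350 ng in the Bin1 cohort, and RNA was fragmented for 2 min and 8 min in turn, so model and library protocol cannot be told apart. The time of day at which each muscle was taken is not given in the sources used here, nor is the order of dissection.

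The clock is a loop of transcription factors that runs in nearly every cell, muscle fibers included. *Arntl* (also called *Bmal1*) and *Clock* encode the pair of activators that bind E-box sequences. Their targets include the *Per* and *Cry* genes, whose proteins block the activators, the nuclear receptor genes *Nr1d1* and *Nr1d2* (REV-ERB), whose proteins repress *Arntl* through RRE sequences, and *Dbp*, an output factor that binds D-box sequences. As a result *Arntl* and the *Per* and *Dbp* group are known to peak at opposite times of the day, and muscle taken at different hours holds very different amounts of each. In skeletal muscle the loop is known to follow the light cycle, feeding and activity.

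The promoter windows that hold one of these elements are shown first, because E-box, D-box and RRE are the sequences through which the factors of the loop are known to bind. Windows from 250 bases before to 50 after a transcript start were taken from RefSeq (GRCm38.p6), which had a window for 9 of the 10 genes (none for *Per2*). They were searched on each strand for the E-box CACGTG, the D-box TTATGTAA and the RRE core TAGGTCA, which share no overlapping match here, and matches are in capitals.
Per1 (E-box, chr11:69098699-69098998, plus strand): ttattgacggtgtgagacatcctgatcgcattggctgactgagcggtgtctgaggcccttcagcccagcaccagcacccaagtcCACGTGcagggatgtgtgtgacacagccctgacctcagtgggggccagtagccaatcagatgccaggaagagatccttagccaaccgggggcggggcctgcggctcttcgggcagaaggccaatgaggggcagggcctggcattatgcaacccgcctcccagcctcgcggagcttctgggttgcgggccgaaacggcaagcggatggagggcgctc
Cry1 (E-box, chr10:85185005-85185304, minus strand): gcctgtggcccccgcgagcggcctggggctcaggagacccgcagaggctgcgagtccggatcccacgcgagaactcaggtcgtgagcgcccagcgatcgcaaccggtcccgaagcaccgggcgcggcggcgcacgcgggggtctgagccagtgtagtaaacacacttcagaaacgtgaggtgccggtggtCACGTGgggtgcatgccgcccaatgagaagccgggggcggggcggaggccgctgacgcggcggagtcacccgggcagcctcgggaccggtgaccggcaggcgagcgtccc
Per3 (a pair of D-boxes, chr4:151044616-151044915, minus strand): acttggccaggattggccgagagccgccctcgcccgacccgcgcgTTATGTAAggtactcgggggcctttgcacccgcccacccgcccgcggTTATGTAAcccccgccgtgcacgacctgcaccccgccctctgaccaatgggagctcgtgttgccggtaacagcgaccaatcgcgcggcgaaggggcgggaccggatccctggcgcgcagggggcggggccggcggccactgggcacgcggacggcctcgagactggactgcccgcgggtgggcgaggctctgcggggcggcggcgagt
Arntl (RRE core, chr7:113207261-113207560, plus strand): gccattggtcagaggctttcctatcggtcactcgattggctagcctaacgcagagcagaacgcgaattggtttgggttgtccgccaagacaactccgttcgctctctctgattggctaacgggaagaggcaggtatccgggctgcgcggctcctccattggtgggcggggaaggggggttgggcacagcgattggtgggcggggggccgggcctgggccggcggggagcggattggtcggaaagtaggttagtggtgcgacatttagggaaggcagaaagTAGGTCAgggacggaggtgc
The E-box was found in 2 of the 9 genes with a window (*Per1* and *Cry1*) and in 8.09% of the 27025 genes with a window (7.15% of 32851 windows), the D-box in 1 (*Per3*) and in 1.11% of genes (0.938% of windows), and the RRE core in 1 (*Arntl*) and in 2.97% of genes (2.61% of windows). The other 5 genes with a window hold none of these letters there, which says nothing of sites elsewhere.

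Reads counted on genes numbered 15586333 to 109710886 per mouse in the Dnm2 cohort and 24671835 to 35136327 in the Bin1 cohort. The lowest count of any clock gene in a mouse was 42 reads (*Per2*, *Dnm2* S619L/+ mouse 3 on placebo). *Bin1* had 539.7 ± 15.7 CPM (SD, n = 4) in WT mice of its cohort and 56.1 ± 5.09 in *Bin1* mck-/- mice on placebo. The point mutation of *Dnm2* does not show in a count per gene. Skeletal muscle markers (*Acta1*, *Ckm*, *Myh4*, *Mylpf*, *Tnnt3*, *Ryr1*) summed to between 65306 and 153550 CPM in the 28 mice. They were at 78586 to 95021 CPM in WT mice on tamoxifen and at 101605 to 126415 in WT mice on placebo of that cohort, without overlap. A list of 6 bone, cartilage and tendon markers summed to between 804 and 1906 CPM in WT mice on tamoxifen and to between 0.566 and 12.1 in WT mice on placebo of that cohort. In *Dnm2* S619L/+ mice on tamoxifen it reached 572 to 1407 in 3 mice and 19.4 in mouse 4, and in *Bin1* mck-/- mice it was at most 28.6 on placebo and 498 in 1 mouse on tamoxifen (mouse 2). Leukocyte markers summed to between 6.40 and 13.03 CPM in WT mice on placebo of the Dnm2 cohort, 27.4 and 60.9 in WT mice on tamoxifen, and 4.64 and 6.68 against 21.1 and 40.7 in WT and *Bin1* mck-/- mice on placebo of the Bin1 cohort. Adipocyte markers were at 5.76 to 19.8 CPM in *Bin1* mck-/- mice on placebo and at 0.667 to 4.71 in those on tamoxifen. The part of these cells in the results was not tested. In whole muscle, fewer cells of a type and less RNA per cell cannot be told apart.

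CPM (counts scaled to the reads on genes, with edgeR's TMM factors within each cohort) was used for levels of one gene, and CPM per kilobase of exon for comparing genes. In WT mice on placebo of the Dnm2 cohort, the REV-ERB gene *Nr1d1* had the highest level, with 47.9 ± 22.5 CPM per kilobase (SD, n = 4). It was followed by *Nr1d2* (32.4 ± 3.95 CPM per kilobase), *Dbp* (30.5 ± 3.19) and *Per1* (24.2 ± 10.3), and neighbours among these 4 overlapped between mice. A gap separated *Per1* from *Cry2* (7.18 ± 1.46 CPM per kilobase), *Per3* (5.35 ± 1.07), *Per2* (4.94 ± 1.98) and *Cry1* (3.95 ± 0.651), which again overlapped one with the next. The activators *Clock* (1.91 ± 0.318 CPM per kilobase) and *Arntl* (1.33 ± 0.802) were lowest. In WT mice on placebo of the Bin1 cohort, *Nr1d1* was again first, with 81.3 ± 18.6 CPM per kilobase, and did not overlap with *Per1* (17.9 ± 2.02), the next. *Arntl* (4.02 ± 1.21 CPM per kilobase) stood sixth there, and *Per2* (1.01 ± 0.310) was last.

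The WT mice on placebo of the cohorts, which had the same labels, held different amounts of several clock genes. *Arntl* was at 5.38 to 18.9 CPM in the 4 WT mice of the Dnm2 cohort and at 24.6 to 43.8 in those of the Bin1 cohort. *Per2* ran the other way, with 15.7 to 39.8 CPM against 4.13 to 8.35, and so did *Nr1d2*, with 144.5 to 193.6 CPM against 49.2 to 83.9. *Dbp* (78.4 to 99.3 CPM against 12.9 to 56.8), *Cry2* (33.2 to 55.3 against 22.4 to 30.1) and *Per3* (41.4 to 61.8 against 10.2 to 30.8) did not overlap either. That made 6 of 10 clock genes, where 31.6% of the genes tested in each cohort did not overlap. The cohorts were scaled separately and made with different library protocols, so these levels stand side by side without a test. The time of day at which the muscles of each cohort were taken is not known, and its part was not tested.

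**Figure D1:**
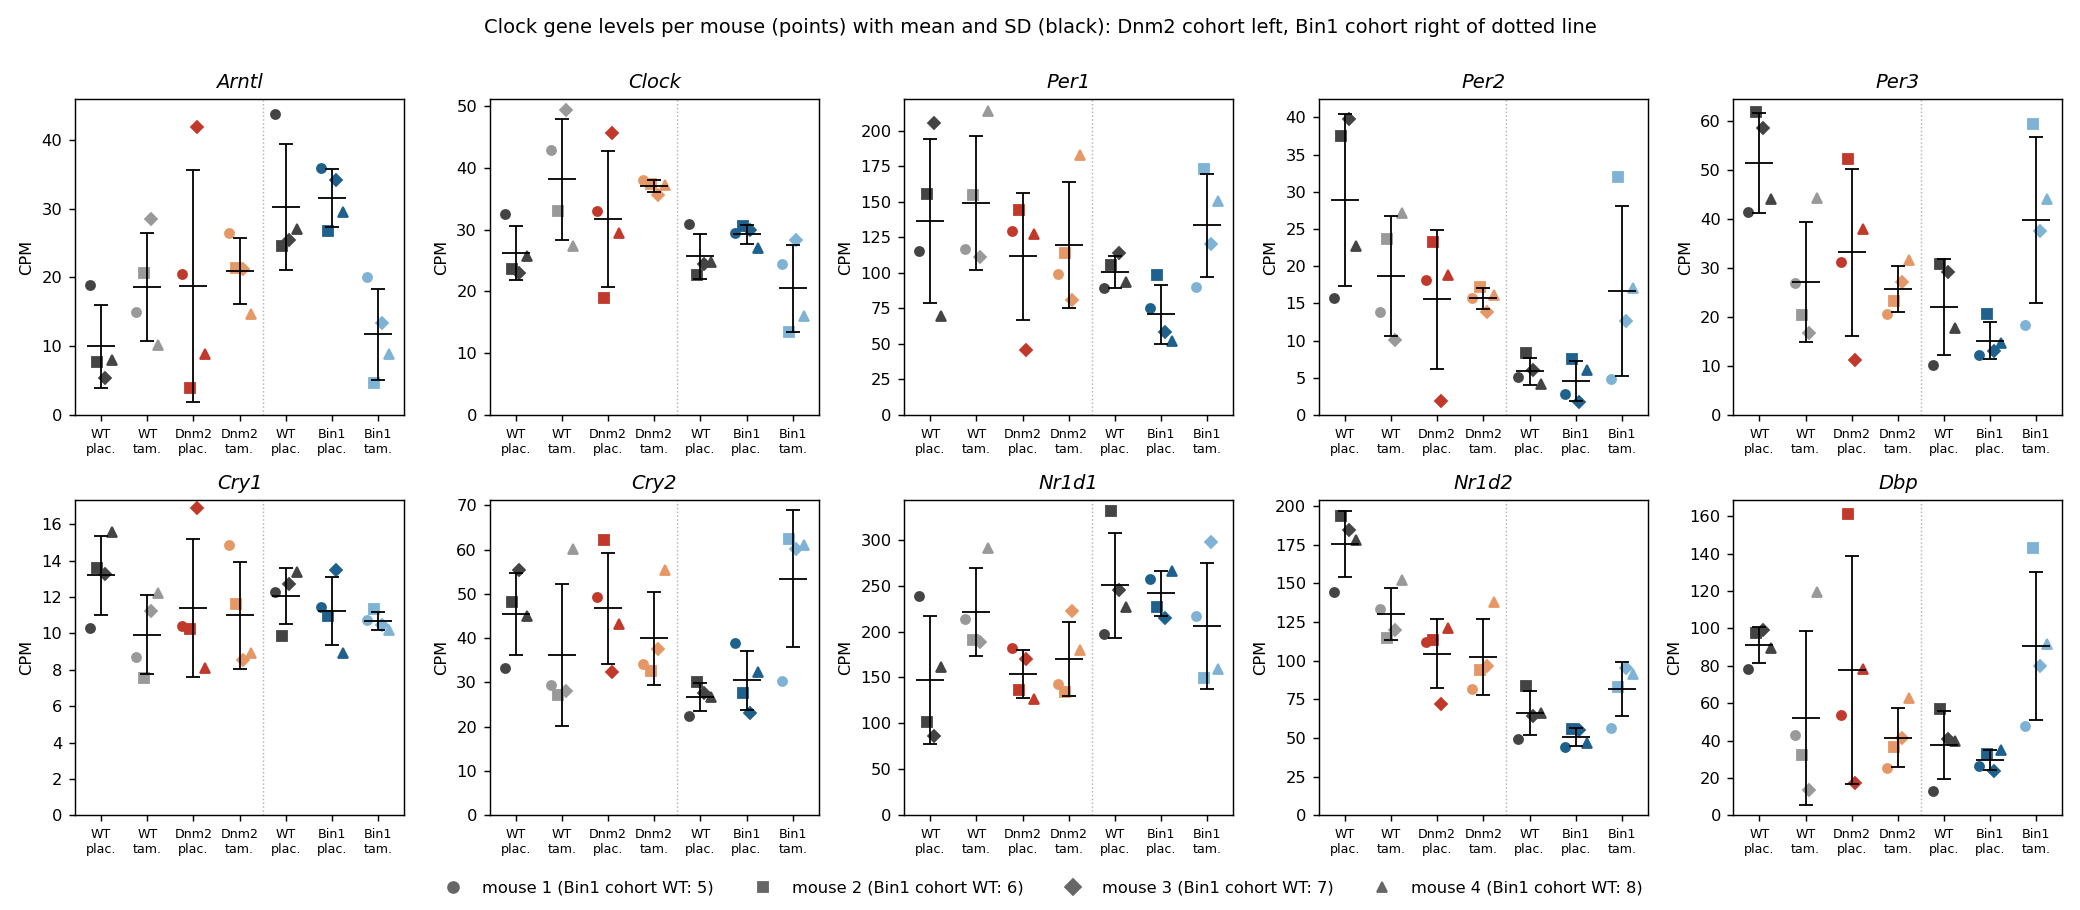
Level of each clock gene in every mouse, in CPM (y axis, linear from 0), by group (x axis; plac., placebo; tam., tamoxifen; Dnm2, *Dnm2* S619L/+; Bin1, *Bin1* mck-/-), with black bars for mean and SD (n = 4). Mice of one group spread widely for *Arntl*, *Per2* and *Dbp*: *Arntl* ran from 3.94 to 41.8 CPM among *Dnm2* S619L/+ mice on placebo.

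Clock genes differed between mice of the same group, and some did so by much more than most genes. In *Dnm2* S619L/+ mice on placebo, *Arntl* was at 20.6, 3.94, 41.8 and 8.83 CPM in mice 1 to 4, a 10.6-fold range. *Dbp* was at 53.6, 161.1, 17.2 and 78.5 CPM in the same 4 mice, so that the mouse lowest in *Arntl* was highest in *Dbp* and the reverse. *Per2*, which encodes a repressor of the loop, was at 18.1, 23.3, 1.90 and 18.8 CPM, lowest in the mouse with the most *Arntl*. WT mice on tamoxifen showed the same opposition, with 15.0, 20.7, 28.5 and 10.1 CPM of *Arntl* and 42.7, 32.0, 13.7 and 119.4 CPM of *Dbp*. *Dnm2* S619L/+ mice on tamoxifen lay closer together, at 26.4, 21.3, 21.2 and 14.7 CPM of *Arntl* and 25.2, 36.4, 41.3 and 63.0 of *Dbp*.

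The ratio of *Arntl* to *Dbp* (CPM over CPM) puts this spread in 1 value per mouse. It ran from 0.0244 (*Dnm2* S619L/+ on placebo, mouse 2) to 2.43 (mouse 3 of the same group) in the Dnm2 cohort. In the Bin1 cohort it ran from 0.0325 (*Bin1* mck-/- on tamoxifen, mouse 2) to 3.41 (WT mouse 5). WT mice 6 to 8 of that cohort had 0.433, 0.624 and 0.675. *Bin1* mck-/- mice on placebo were the most alike, with 1.37, 0.819, 1.44 and 0.842, and those on tamoxifen had 0.4218, 0.0325, 0.167 and 0.0964.

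**Figure D2:**
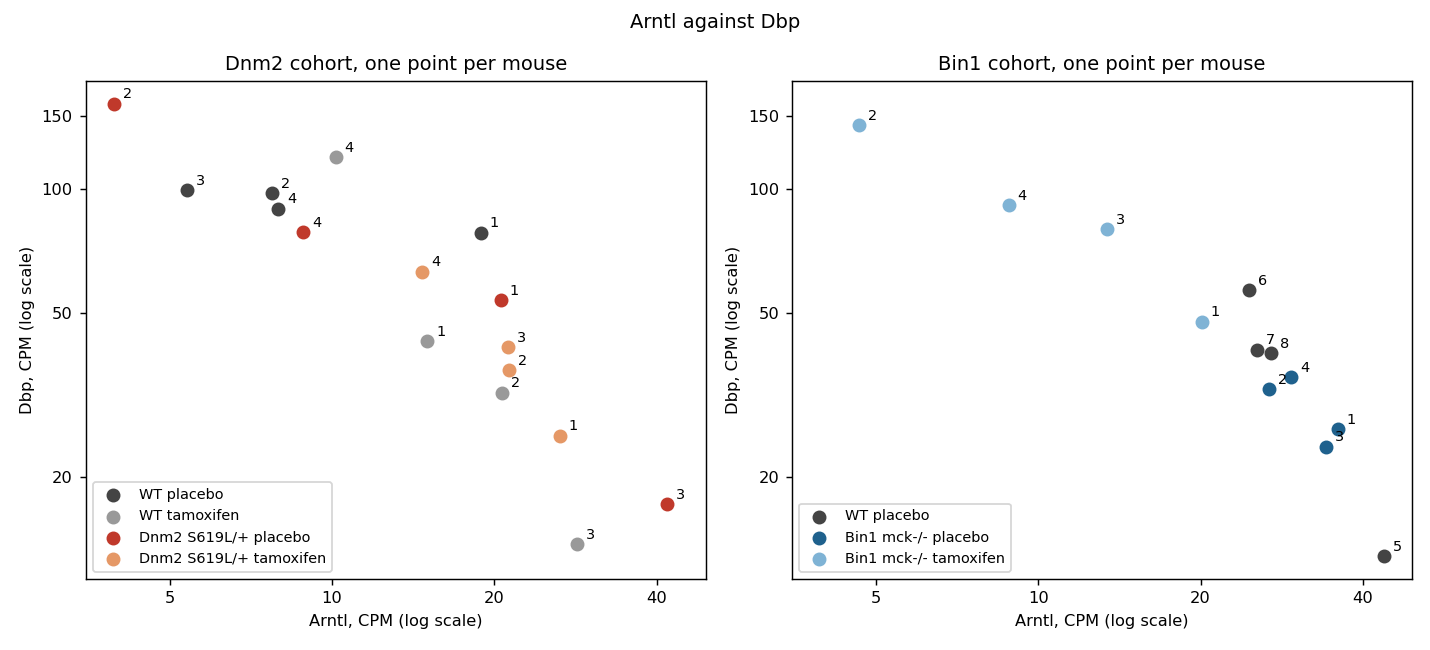
*Dbp* against *Arntl* in CPM (log scales) for each mouse of the Dnm2 cohort (left, 16 mice) and the Bin1 cohort (right, 12 mice); numbers are replicate numbers. Mice lie along a falling line in each cohort, and in *Dnm2* S619L/+ mice on placebo the extremes are mouse 2 (3.94 and 161.1 CPM) and mouse 3 (41.8 and 17.2 CPM).

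As a measure of this spread over a cohort, the SD of log2 CPM within groups was 0.97 for *Dbp*, 0.96 for *Per2* and 0.90 for *Arntl* in the Dnm2 cohort, where the median of the 15439 genes tested was 0.27. These 3 genes stood above 96.8%, 96.6% and 95.7% of the genes tested. *Per1* (SD 0.61) and *Per3* (0.60) followed, at 85.7% and 85.2%. *Nr1d2*, with 0.27, was at the median (49.6%), and *Clock* (0.34), *Cry1* (0.35), *Cry2* (0.41) and *Nr1d1* (0.42) were between. In the Bin1 cohort the order was *Per2* (0.89, above 92.6% of 14841 genes), *Dbp* (0.67, 85.2%), *Per3* (0.63, 82.8%) and *Arntl* (0.58, 79.8%), and *Cry1* was among the steadier genes (0.18, 26.2%). These values describe the mice at hand and were not tested.

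Whether the clock genes moved together was asked over mice of the same group, using each mouse's deviation of log2 CPM from its group mean. With all 45 pairs of the 10 genes compared in each cohort by an exact two-sided permutation of mice within groups, 27 pairs passed a Benjamini-Hochberg adjusted p of 0.05 in the Dnm2 cohort (16 positive, 11 negative) and 5 in the Bin1 cohort (3 positive, 2 negative). All 5 pairs of the Bin1 cohort were among the 27 and had the same sign in each cohort. *Arntl* and *Clock*, the activators, rose and fell together over the 16 mice of the Dnm2 cohort (Pearson's r = 0.8905, exact permutation p = 0.00113, adjusted p = 0.00510, Spearman's rho = 0.797, exact p = 0.00742). In the Bin1 cohort the same pair had r = 0.866 and did not pass (exact permutation p = 0.0236, adjusted p = 0.0884).

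Each activator ran against *Per1*, *Per2*, *Per3* and *Dbp* in the Dnm2 cohort, where all 8 of these pairs passed, while in the Bin1 cohort 2 of the 8 passed, *Arntl* with *Per3* and with *Dbp*. *Arntl* and *Dbp* had r = -0.861 over 16 mice of the Dnm2 cohort (exact permutation p = 3.01e-06, the smallest these permutations can give, adjusted p = 0.000136, rho = -0.943 with the same p) and r = -0.834 over 12 mice of the Bin1 cohort (exact p = 0.000579, adjusted p = 0.0130, rho = -0.870, exact p = 0.000723). *Arntl* and *Per3*, the pair whose windows with an RRE core and with D-boxes are printed above, had r = -0.889 (exact permutation p = 4.52e-05, adjusted p = 0.000678) and r = -0.859 (exact p = 7.23e-05, the smallest possible there, adjusted p = 0.00326). Without the 2 mice farthest from the median in *Arntl*, r of *Arntl* and *Dbp* was -0.730 and -0.857 in the Dnm2 and Bin1 cohorts, and r of *Arntl* and *Per3* was -0.775 and -0.837. The strongest pair was *Per3* with *Dbp*, at r = 0.948 in the Dnm2 cohort (exact permutation p = 6.03e-06, adjusted p = 0.000136, rho = 0.958) and 0.911 in the Bin1 cohort (exact p = 0.000868, adjusted p = 0.0130, rho = 0.888). Without the 2 mice farthest in *Per3* it was 0.920 and 0.775.

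*Cry1* and *Nr1d1* stood apart from the rest in the Dnm2 cohort. In the Bin1 cohort they did not differ in this from *Clock*, *Cry2* and *Nr1d2*, which had no pair that passed there. No pair with *Cry1* or *Nr1d1* passed the test, with r between -0.444 and 0.353 in the Dnm2 cohort (smallest adjusted p = 0.236) and between -0.488 and 0.519 in the Bin1 cohort (smallest adjusted p = 0.1204, exact permutation tests). *Cry1* was between 7.53 and 16.9 CPM in all 28 mice. The gene, whose window holds an E-box like that of *Per1*, had r = -0.414 with *Per1* in the Dnm2 cohort and 0.0910 in the Bin1 cohort. Their paralogs did join the group: *Cry2* and *Dbp* had r = 0.820 (exact permutation p = 0.000627, adjusted p = 0.00377) and *Nr1d2* and *Dbp* r = 0.763 (exact p = 0.000754, adjusted p = 0.00377) over the 16 mice of the Dnm2 cohort. In the Bin1 cohort these pairs had r = 0.641 and 0.739 and did not pass.

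**Figure D3:**
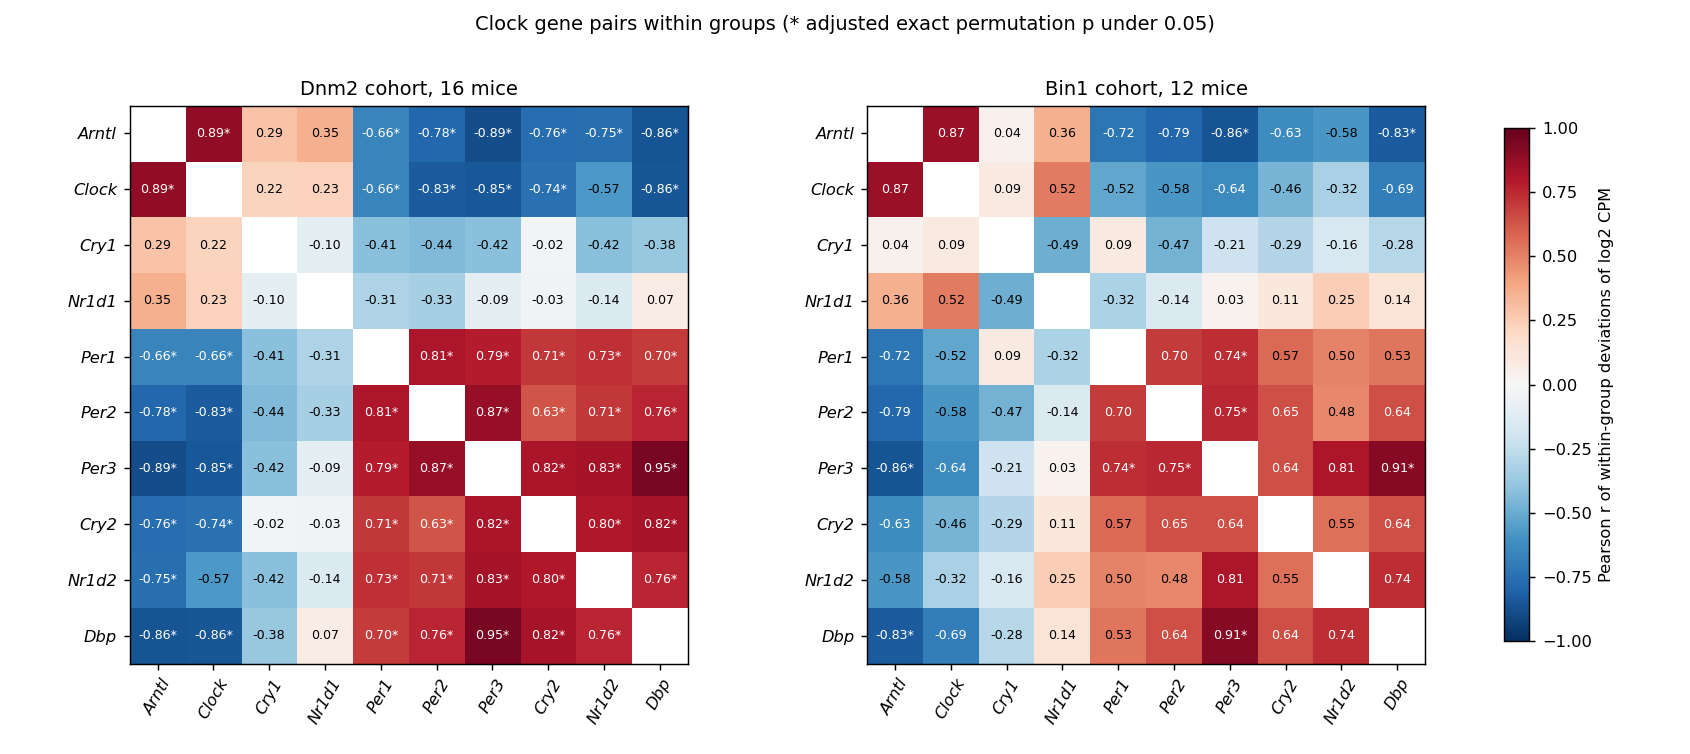
Pearson's r of within-group deviations of log2 CPM for each pair of clock genes in the Dnm2 cohort (left, 16 mice) and the Bin1 cohort (right, 12 mice), from -1 (blue) to 1 (red), with asterisks where the adjusted exact permutation p was under 0.05. By the sign of r, *Arntl* and *Clock* form one block against *Per1*, *Per2*, *Per3*, *Cry2*, *Nr1d2* and *Dbp*. Asterisks mark 27 pairs on the left and 5 on the right. *Clock* with *Nr1d2* has none in either panel, and no pair with *Clock* has one on the right.

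Among the 14571 genes tested in each cohort, the genes most like a clock gene over mice of a group were described by the mean of their r in the Dnm2 and Bin1 cohorts, with no test. For *Arntl* the 5 highest were *Sh3bp5* (mean r 0.882), *Clock* (0.878), *Slc25a36* (0.863), *Leo1* (0.843) and *Npas2* (0.833), which encodes a CLOCK-like partner of ARNTL. The 5 lowest were *Per3* (-0.874), *Dbp* (-0.848), *Ciart* (-0.836), which encodes a repressor of the loop, *Per2* (-0.785) and *Maco1* (-0.768). For *Dbp* the 5 highest were *Per3* (0.929), *Nfe2l2* (0.823), *Tef* (0.776), *Ciart* (0.766) and *Nr1d2* (0.751), and *Tef* encodes a factor of the same PAR bZIP family as DBP. The 5 lowest for *Dbp* were *Arntl* (-0.848), *Npas2* (-0.822), *Efr3b* (-0.801), *Tbc1d20* (-0.796) and *Sh3bp5* (-0.792).

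The first comparison set *Dnm2* S619L/+ mice against WT mice, all on placebo. *Nr1d2*, which encodes the repressor REV-ERB beta, was the 1 clock gene of 10 that passed edgeR's quasi-likelihood test, where 21.9% of all genes tested passed. It was at 111.8, 113.6, 71.8 and 121.0 CPM in *Dnm2* S619L/+ mice on placebo and at 144.5, 193.6, 184.2 and 178.3 in WT mice on placebo. The groups did not overlap, which held for 1 clock gene and for 24.9% of all genes tested. Endothelial markers, of which 2 of 3 were called lower in the same comparison, summed to between 121 and 368 CPM in mutant and 285 and 558 in WT mice, and their part in this result was not tested. The log2 fold change was -0.74 with an SE of 0.18 (adjusted p by edgeR = 0.00798). The mean level was 104.6 ± 22.2 CPM in mutant and 175.1 ± 21.4 in WT mice (SD, n = 4). The call held without any single mouse of the cohort, with log2 fold changes from -0.83 to -0.60 and adjusted p of at most 0.0353. The time of day at which each muscle was taken is not known, and its part in this difference was not tested.

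The other 9 clock genes did not pass in this comparison, and their log2 fold changes had wide errors. *Per2* had -0.88 (SE 0.50) and *Arntl* 0.88 (SE 0.55), and *Per3* had -0.63 (SE 0.36). *Dnm2* S619L/+ mouse 3 weighed on each: without it the values were -0.52, 0.14 and -0.35. Over all mice left out in turn, *Arntl* reached 1.40 (without WT mouse 1), *Per2* -1.14 and *Per3* -0.94 (without *Dnm2* S619L/+ mouse 2). The remaining 6 lay between -0.29 and 0.27, the largest SE being that of *Dbp* (0.59). The median over the 10 genes was -0.22, against 0.02 over all genes tested, and since mice of a group deviate together in these genes, the 10 values are not separate pieces of evidence.

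WT mice on tamoxifen had 0 of 10 clock genes that passed against WT mice on placebo by edgeR's quasi-likelihood test, where 27.7% of all genes passed, with 4 at an unadjusted p under 0.05, where 40.3% of all genes were, and 1 by DESeq2. The 4, a share like that of all genes, were *Clock*, at 42.8, 33.1, 49.3 and 27.4 CPM on tamoxifen and 32.5, 23.6, 22.9 and 25.8 on placebo (log2 fold change 0.54 with SE 0.22, adjusted p by edgeR = 0.0790), *Per3* (-0.92, SE 0.36, adjusted p = 0.0717), *Nr1d2* (-0.43, SE 0.18, adjusted p = 0.0785) and *Nr1d1* (0.58, SE 0.27, adjusted p = 0.121). All 10 genes overlapped between these groups, while 31.4% of genes tested did not. When only these groups were fitted, *Clock*, *Per3* and *Nr1d2* passed (adjusted p 0.0415, 0.0327 and 0.0295). Without tamoxifen mouse 4, whose ratio of *Arntl* to *Dbp* was 0.0850 against 0.351 to 2.07 in the other 3, 3 clock genes passed (*Clock*, *Per3* and *Cry2*), and 3 (*Clock*, *Per3* and *Nr1d2*) without *Dnm2* S619L/+ mouse 3 on placebo. By this ratio tamoxifen mouse 4 lay among WT mice on placebo (0.0541 to 0.2405). As clock genes deviate together between mice, leaving it out widens their difference by construction. Without WT mouse 1 on placebo *Nr1d1* passed alone (0.92, adjusted p = 0.0142). The share of all genes called by DESeq2 or in these refits is not given here.

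In *Dnm2* S619L/+ mice, tamoxifen against placebo gave 0 of 10 clock genes by edgeR (8.27% of all genes passed), 0 at an unadjusted p under 0.05, where 25.4% of all genes were, and 0 by DESeq2. *Dbp* had the largest log2 fold change, -0.90, with an SE of 0.59 (adjusted p = 0.367), from 77.6 ± 61.1 CPM on placebo to 41.5 ± 15.9 on tamoxifen. *Nr1d2* had -0.03 (SE 0.18, adjusted p = 0.943), with 81.4, 94.1, 96.4 and 138.0 CPM on tamoxifen. No clock gene separated these groups, and 10.4% of genes tested did. Against WT mice on placebo, *Nr1d2* was lower in *Dnm2* S619L/+ mice on tamoxifen too (log2 fold change -0.77 with SE 0.18, adjusted p by edgeR = 0.00484), the 1 clock gene of 10 called where 28.9% of all genes were. Here *Clock*, *Per3*, *Nr1d2* and *Dbp* did not overlap between the groups (4 of 10, against 26.1% of genes tested). *Per3* just missed the threshold (-0.997, SE 0.36, adjusted p = 0.0518), with 20.7, 23.3, 27.2 and 31.6 CPM against 41.4, 61.8, 58.6 and 44.0 in WT mice. The comparisons with WT mice on placebo share those 4 mice. DESeq2 called *Nr1d2* and *Per3*, and a fit of these groups alone called *Clock*, *Per3*, *Nr1d2* and *Dbp*. *Nr1d2* held its call without any single mouse of the cohort (log2 fold changes from -0.95 to -0.68, adjusted p of at most 0.0217), and 3 clock genes were called without *Dnm2* S619L/+ mouse 2 or mouse 3 on placebo. For DESeq2 and the refits of this comparison, the share of all genes called is not given here.

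The test of whether tamoxifen acted differently in *Dnm2* S619L/+ and WT mice (interaction) gave 0 of 10 clock genes by edgeR (0.259% of all genes passed), 0 at an unadjusted p under 0.05, where 13.5% of all genes were, and 0 by DESeq2. *Nr1d2* had an interaction of 0.40 (SE 0.25, adjusted p = 0.510) on the log2 scale.

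In the Bin1 cohort, loss of *Bin1* without treatment gave 0 of 10 clock genes by edgeR (2.61% of all genes passed), 2 at an unadjusted p under 0.05, where 20.2% of all genes were, and 0 by DESeq2. These 2, again the share found over all genes, were *Per1*, with 75.1, 98.1, 58.1 and 51.9 CPM in *Bin1* mck-/- and 89.3, 105.4, 114.2 and 93.3 in WT mice (log2 fold change -0.51 with SE 0.21, adjusted p by edgeR = 0.202), and *Nr1d2* (-0.39, SE 0.17, adjusted p = 0.220). *Arntl* was at 31.6 ± 4.20 CPM in *Bin1* mck-/- and 30.2 ± 9.13 in WT mice (log2 fold change 0.06, SE 0.36). All 10 genes overlapped between these groups, while 16.5% of genes tested did not. The disease effect of the cohorts was compared in a joint fit of all 28 mice, in which 0 of 10 clock genes differed by edgeR (0.312% of all genes passed), with 0 at an unadjusted p under 0.05 (13.5% of all genes) and 0 by DESeq2. For *Nr1d2* the difference between the disease effects was -0.36 (SE 0.26, adjusted p = 0.568).

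*Bin1* mck-/- mice on tamoxifen stood out from those on placebo in 8 of 10 clock genes at an unadjusted p under 0.05, 2 of which passed the adjustment by edgeR, where 3.13% of all genes passed and 20.7% had an unadjusted p under 0.05. The 2 were *Per1*, at 89.7, 173.2, 120.1 and 150.8 CPM on tamoxifen and 75.1, 98.1, 58.1 and 51.9 on placebo (log2 fold change 0.91 with SE 0.21, adjusted p by edgeR = 0.0365), and *Nr1d2*, at 56.5, 83.2, 95.1 and 91.1 CPM on tamoxifen and 44.0, 55.6, 55.1 and 46.9 on placebo (0.69, SE 0.17, adjusted p = 0.0428). *Nr1d2* did not overlap between the groups, and *Per1* did, through tamoxifen mouse 1 and placebo mouse 2. The median over the 10 genes was 0.75 on the log2 scale, against 0.00 over all genes tested (-0.000659 before rounding). As several of these genes deviate together between mice of a group, the 8 are not separate pieces of evidence. The time of day at which each muscle was taken is not known, and its part in this difference was not tested.

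The activator and the output gene were also apart in this comparison. *Arntl* was at 20.1, 4.64, 13.4 and 8.81 CPM on tamoxifen and at 35.9, 26.7, 34.1 and 29.5 on placebo (log2 fold change -1.43 with SE 0.37, adjusted p by edgeR = 0.0613). *Dbp* was at 47.6, 142.7, 80.0 and 91.4 CPM on tamoxifen and at 26.1, 32.7, 23.7 and 35.0 on placebo (1.62, SE 0.43, adjusted p = 0.0724). Neither overlapped between the groups, so 3 of 10 clock genes did not, against 9.8% of genes tested. *Cry2* had 0.81 (SE 0.21, adjusted p = 0.0560), *Per3* 1.39 (SE 0.40, adjusted p = 0.0894), *Per2* 1.88 (SE 0.58, adjusted p = 0.103) and *Clock* -0.51 (SE 0.19, adjusted p = 0.148). *Cry1* (-0.07, SE 0.14) and *Nr1d1* (-0.23, SE 0.21) were the 2 with an unadjusted p above 0.05.

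The number of clock genes called here depended on single mice and on the fit. The share of all genes called is given only for the edgeR fit of all mice. The counts from DESeq2 and the refits therefore have no share beside them. DESeq2 called 7 (*Arntl*, *Per1*, *Per2*, *Per3*, *Cry2*, *Nr1d2* and *Dbp*), and edgeR called 7 without tamoxifen mouse 1. It called 0 when only these groups were fitted and in 6 of the fits that left out another mouse: placebo mouse 1, 3 or 4, tamoxifen mouse 3 or 4, or WT mouse 8. Tamoxifen mouse 1 had the highest *Arntl* and the lowest *Per1*, *Per2*, *Per3*, *Cry2*, *Nr1d2* and *Dbp* of its group. Leaving out this mouse, which lay nearest the placebo group in these genes, widens their difference by construction. Tamoxifen mouse 2, the one with 498 CPM of bone, cartilage and tendon markers, had the lowest *Arntl* and the highest *Dbp*, and without it *Arntl*, *Per1* and *Nr1d2* passed.

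Against WT mice on placebo, *Cry2* was the 1 clock gene of 10 called in *Bin1* mck-/- mice on tamoxifen (0.849% of all genes passed). It was at 30.3, 62.3, 60.1 and 61.0 CPM on tamoxifen and at 22.4, 30.1, 27.5 and 26.8 in WT mice, and the lowest treated mouse lay just above the highest WT mouse. The log2 fold change was 1.001 (SE 0.21, by edgeR adjusted p = 0.0478). The call was lost in most fits that left out a mouse, among them those without any 1 of the 4 WT mice (adjusted p up to 0.152). *Arntl* had -1.37 (SE 0.37, adjusted p = 0.122) and with *Cry2* made 2 of 10 genes that did not overlap, against 7.97% of genes tested. DESeq2 called *Arntl* and *Cry2*, and the share of all genes it called is not given here.

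Tamoxifen effects in mice with a mutation were set against each other in the joint fit of the cohorts. By edgeR 0 of 10 clock genes differed (1.71% of all genes passed), with 7 at an unadjusted p under 0.05, where 24% of all genes were. DESeq2 called 2 (*Dbp* and *Per3*), and by edgeR 3 passed without *Dnm2* S619L/+ mouse 4 on tamoxifen (*Cry2*, *Nr1d2* and *Dbp*). No share of all genes is given here for DESeq2 or that refit. *Dbp* had a difference of -2.47 (SE 0.81, edgeR adjusted p = 0.0775), from a log2 fold change of -0.90 in *Dnm2* S619L/+ and 1.62 in *Bin1* mck-/- mice. *Per3* had -1.72 (SE 0.56, adjusted p = 0.0770) and *Arntl* 1.60 (SE 0.73, adjusted p = 0.186). Only in the Dnm2 cohort is a WT group on tamoxifen at hand, so the effect of the drug alone in the Bin1 cohort cannot be told apart from that in diseased muscle.

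**Figure D4:**
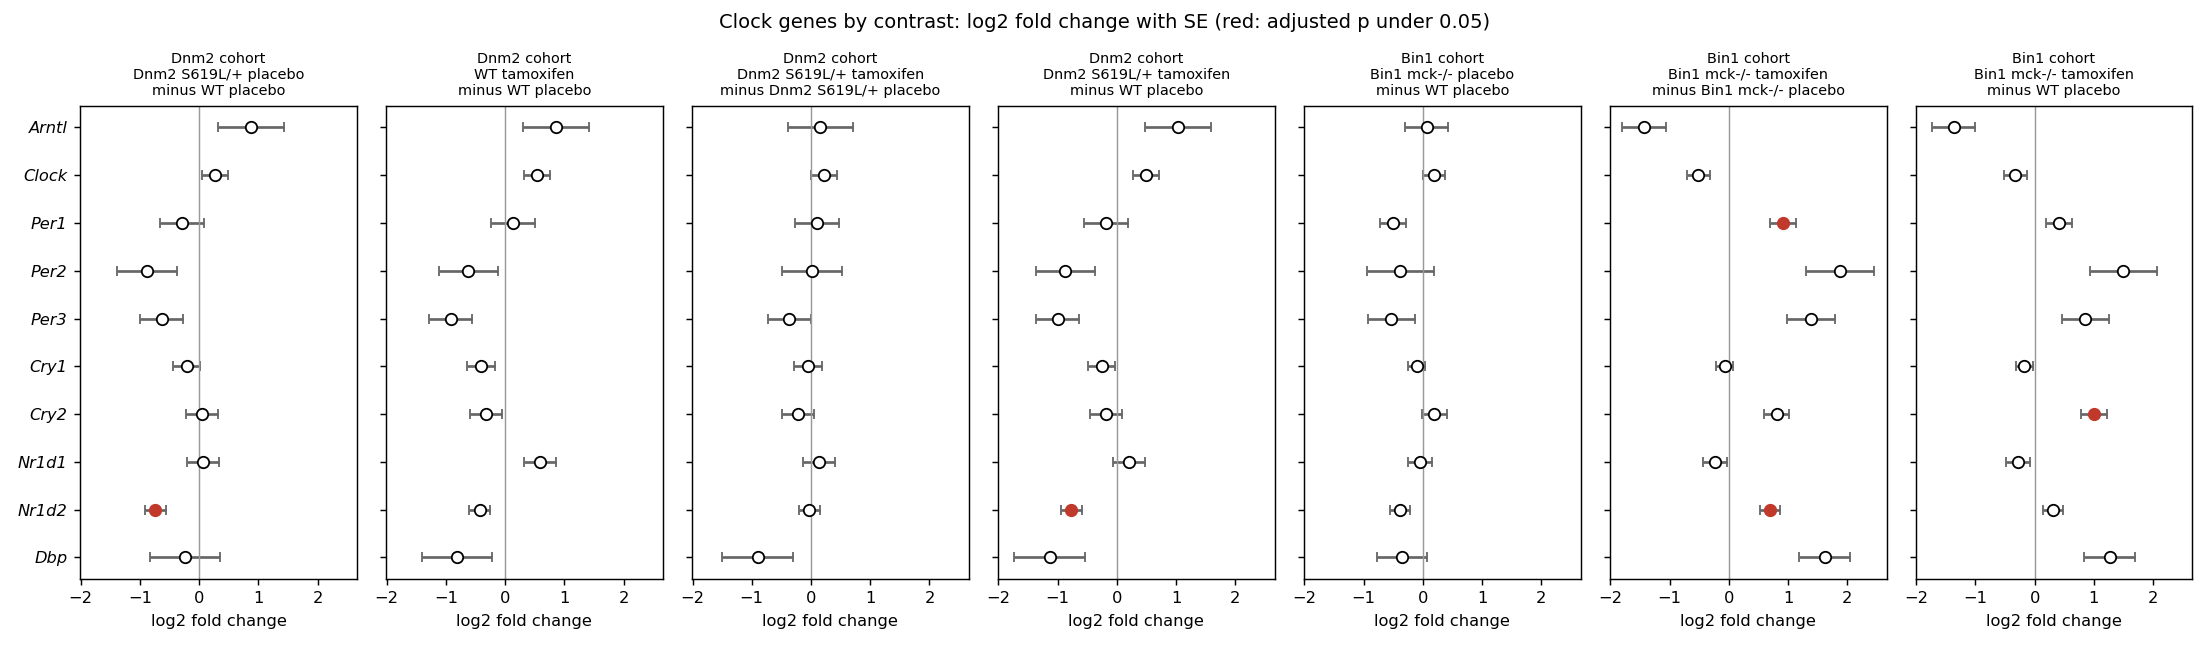
Log2 fold change (x axis) with SE (bars) of the 10 clock genes in the 7 comparisons within cohorts, filled red where edgeR's adjusted p was under 0.05 and open otherwise. *Nr1d2* is red at -0.74 and -0.77 in the Dnm2 cohort, and *Per1* (0.91), *Nr1d2* (0.69) and *Cry2* (1.001) are red in the Bin1 cohort.

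Other genes of the clock were followed as a list of 20 partners, of which 18 were tested in each cohort (*Rorb* and *Fbxl21* had at most 18 reads in a mouse). Between *Dnm2* S619L/+ and WT mice on placebo, 0 rose and 5 fell by edgeR (5 of 18 called, where 21.9% of all genes were and 9.81% fell), with a median log2 fold change of -0.20 over the 18 against 0.02 over all genes tested. *Csnk1e*, a kinase that marks PER proteins for decay, was at 48.4, 46.8, 45.1 and 41.3 CPM in mutant and 54.7, 62.0, 59.2 and 66.0 in WT mice (-0.41 on the log2 scale, SE 0.08, adjusted p = 0.00212). *Hlf*, a relative of *Dbp*, fell from 10.5 to 31.9 CPM in WT to 4.55 to 13.2 in mutant mice (-1.61, SE 0.41, adjusted p = 0.0129), with overlap. *Cipc*, which encodes an inhibitor of CLOCK, had -0.40 (SE 0.12, adjusted p = 0.0223). Under tamoxifen in WT mice 1 rose and 3 fell, a smaller share than the 27.7% of all genes called. In *Dnm2* S619L/+ mice 0 rose and 0 fell, where 8.27% of all genes were called. There 2 had an unadjusted p under 0.05, as had 25.4% of all genes. In *Dnm2* S619L/+ mice on tamoxifen against WT mice on placebo 1 rose and 5 fell, beside 28.9% of all genes called.

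*Npas2* was the partner with the largest rise in the Dnm2 cohort. It was at 6.92, 8.88, 6.73 and 3.62 CPM in WT mice on tamoxifen and at 1.18, 0.226, 0.158 and 0.536 in WT mice on placebo, without overlap (log2 fold change 3.31 with SE 0.71, adjusted p by edgeR = 0.00362). Groups did not overlap for 31.4% of genes tested in this comparison. *Npas2* was near the floor on placebo, with 0.158 CPM in a mouse with 15586333 reads on genes, so the size of its rise rests on few reads. In *Bin1* mck-/- mice it moved the other way, to 2.27, 1.001, 1.203 and 0.987 CPM on tamoxifen from 5.68, 3.73, 6.71 and 4.16 on placebo (-1.86, SE 0.34, adjusted p = 0.0113). The tamoxifen effects in *Dnm2* S619L/+ and *Bin1* mck-/- mice differed by 3.59 for *Npas2* (SE 0.83, adjusted p by edgeR = 0.0410). *Npas2* was the 1 clock partner called in that joint test. Within *Dnm2* S619L/+ mice, tamoxifen against placebo called 0 of the 18 partners, *Npas2* included. The time of day at which each muscle was taken is not known, and its part in this difference was not tested.

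In *Bin1* mck-/- mice on tamoxifen against placebo 6 partners rose and 1 fell by edgeR, where 1.52% of all genes rose and 1.61% fell, with a median of 0.29 on the log2 scale. *Bhlhe41*, which encodes the repressor DEC2, rose (log2 fold change 0.81, SE 0.16, adjusted p = 0.0170), and so did *Rora* (0.76, SE 0.17, adjusted p = 0.0282). *Hlf*, *Tef* and *Ciart*, named for this comparison after their values were seen, also rose (2.00, 0.72 and 2.67 on the log2 scale, adjusted p 0.0290, 0.0311 and 0.0377). Between *Bin1* mck-/- and WT mice on placebo 0 rose and 2 fell (0.627% of all genes fell), among them *Cipc* (-0.40, SE 0.10, adjusted p = 0.0456), and against WT mice on placebo the treated mice had 0 called in either direction, with 6 at an unadjusted p under 0.05, where 14.9% of all genes were.

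Among 5 genes that the muscle clock is known to drive, *Hk2*, the hexokinase of muscle, fell in *Dnm2* S619L/+ mice on placebo (log2 fold change -1.08 with SE 0.25, adjusted p by edgeR = 0.00656), in WT mice on tamoxifen (-0.96, SE 0.24, adjusted p = 0.00950) and in *Dnm2* S619L/+ mice on tamoxifen (-1.10, SE 0.25, adjusted p = 0.00443), each against WT mice on placebo, and was the 1 gene of 5 called in each of them. That is no larger a share than the 21.9%, 27.7% and 28.9% of all genes called there. *Tcap* had 0.67 (SE 0.19, adjusted p = 0.0675) under tamoxifen in *Bin1* mck-/- mice. By edgeR 0 of the 5 were called in the Bin1 cohort, where 1 to 3 had an unadjusted p under 0.05 in each comparison. Of all genes 0.849% to 3.13% were called in these comparisons, and 14.9% to 20.7% had an unadjusted p under 0.05.

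Lists of genes that answer glucocorticoids (9 genes) and of immediate early genes (6 genes) were read beside the clock genes, because *Per1* is known to answer each kind of signal. Between *Dnm2* S619L/+ and WT mice on placebo, 3 of 9 glucocorticoid responsive genes rose, where 12.1% of all genes did, among them the cell cycle inhibitor gene *Cdkn1a* (log2 fold change 3.09 with SE 0.33, adjusted p by edgeR = 3.49e-05) and the metallothionein gene *Mt2* (4.42, SE 0.75, adjusted p = 0.00104), while *Per1* had -0.29 (SE 0.37, adjusted p = 0.611). Of the 6 immediate early genes 4 rose, with *Junb* at 2.23 (SE 0.37, adjusted p = 0.000906) and *Egr1* at 2.65 (SE 0.55, adjusted p = 0.00393). Between *Bin1* mck-/- and WT mice on placebo 1 of 9 glucocorticoid responsive and 2 of 6 immediate early genes rose, where 1.99% of all genes did. In *Bin1* mck-/- mice on tamoxifen against placebo, where *Per1* rose, 0 of 9 and 0 of 6 were called by edgeR, with 3 of each at an unadjusted p under 0.05. Of all genes 3.13% were called there and 20.7% had an unadjusted p under 0.05, so 0 calls in lists this short say little. The part of these signals in the values of *Per1* was not tested.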

How the data were processed

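RNA-seq libraries of TA muscle (28 mice, 7 groups, 4 mice a group) were used. For each cohort the authors deposited a table of raw counts, whole numbers of reads by Ensembl identifier. The libraries were stranded and made from polyadenylated RNA. The submitters' processing notes name cutadapt 1.10, Bowtie 1.2.2, STAR 2.5.3, HTSeq 0.6.1p1 and the build mm39, and the strand setting of the counting is not given in the sources used here. In the table of the Bin1 cohort, 4 lines that name no gene (median 23.9% of counts per mouse) stayed out of library sizes and tests. Groups and replicate numbers came from sample titles. The labels do not say more of where replicates came from, so p-values measure the spread between these samples. No 2 libraries agreed within counting error.

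Counts were tested with edgeR 4.0.16 in R 4.3.3 (TMM, default filter on low counts, robust quasi-likelihood test, prior count 2 for log2 values), with all mice of a cohort in 1 fit, and comparisons between cohorts in a joint fit. Benjamini-Hochberg adjusted p over all genes tested under 0.05 was a call. The SE of a log2 fold change is its absolute value over the square root of edgeR's F statistic, an approximation. CPM used TMM library sizes, and gene lengths were the union of GENCODE M21 exons. Pairs of genes were tested by permuting mice within groups, exactly (scipy 1.17.1). Identifiers were named with GENCODE M21, which held 52083 of them, and promoter sequences came from RefSeq, GRCm38.p6. No coordinates of the counts were used. The tests were first tried on simulated data. The alternatives were DESeq2 1.42.0, RLE normalization, no filter, a filter as in the study (over 10 reads in 90% of mice or more), a fit of just the compared groups, a block for replicate number, variance-stabilized counts, Spearman's rho, and leaving out each mouse. A fit with the ratio of *Arntl* to *Dbp* as a covariate was added after the data were seen and used only to list genes that follow it.

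The 10 genes, the lists and the comparisons were chosen with earlier results of these data known. Named by rule were all 10 genes, per cohort the 4 clock partners with the smallest p, the 2 genes with the smallest p of each further list, and the 5 genes most and least like *Arntl* and *Dbp*. 1 clock partner that the rule names is not reported here. Other genes are named as chosen after their values were seen.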

Additional observations from a re-analysis of the deposited data

Results flagged for a closer look

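A mouse stood far from the other 3 of its group, by Dixon's ratio of its gap to the whole range (above the critical value for 4 samples), in 3 of the 70 combinations of clock gene and group, and chance gives about 1 in 20. *Arntl* was at 43.8 CPM in WT mouse 5 of the Bin1 cohort, against 24.6 to 27.0 in the other 3 (ratio 0.875). *Cry2* was at 30.3 CPM in mouse 1 of the *Bin1* mck-/- group on tamoxifen, against 60.1 to 62.3 (ratio 0.929), and at 60.2 CPM in mouse 4 of the WT group on tamoxifen in the Dnm2 cohort, against 27.3 to 29.4 (ratio 0.935). Each of these mice also had the extreme ratio of *Arntl* to *Dbp* of its group, that is 3.41, 0.4218 and 0.0850. This is not separate evidence, since *Arntl* is part of the ratio. *Cry2* deviated with *Arntl* and *Dbp* within groups of the Dnm2 cohort.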

How the results depend on the processing

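The number of clock genes called moved with the tool and the fit, and the cause was not tested. The share of all genes called is given only for the edgeR fit of all mice. The counts from other tools and fits in this section therefore have no share beside them. DESeq2 called 1 gene for tamoxifen in WT mice (0 by edgeR), 2 in treated *Dnm2* S619L/+ against WT mice (1 by edgeR), 7 for tamoxifen in *Bin1* mck-/- mice (2 by edgeR), 2 in treated *Bin1* mck-/- against WT mice (1 by edgeR) and 2 for the difference between tamoxifen effects (0 by edgeR). A fit of just the compared groups called 3, 4, 0 and 0 in the first 4 of these. Without a filter on low counts, 1 gene was called for tamoxifen in *Bin1* mck-/- mice, and 0 in treated *Bin1* mck-/- against WT mice, where RLE normalization also gave 0. Leaving out each mouse in turn gave 0 to 3, 1 to 3, 0 to 7, 0 to 2 and 0 to 3 calls in the 5 comparisons in that order. It gave 1 to 8 pairs in the Bin1 cohort (5 with all mice), with 1 without *Bin1* mck-/- mouse 2 on tamoxifen and 8 without *Bin1* mck-/- mouse 4 on placebo, and 19 to 27 pairs in the Dnm2 cohort.

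Of the 5 called values, 0 changed sign in any of the fits named above and in the methods, the added covariate aside, which is made of clock genes and bears on no call, and 65 of their 97 refits kept the call, while 25 of the 95 uncalled values changed sign in at least 1. Replicate numbers did not pair the mice (correlations of deviations between -0.228 and 0.155). With the replicate number as a block the counts stayed at 1, 0, 0, 1 and 0 in the Dnm2 cohort, *Nr1d2* having -0.76 and -0.79, and 3 genes (*Arntl*, *Per3* and *Dbp*) were called for tamoxifen in *Bin1* mck-/- mice in a fit of those groups. No paired analysis was possible for comparisons with WT mice of the Bin1 cohort because their numbers are not shared. With 4 mice a group and clock genes that spread this widely, smaller differences may have gone uncalled.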

Other observations

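Few genes passed a test for following the ratio of *Arntl* to *Dbp* over mice once the group was in the fit. By edgeR 13 of 15439 genes (0.0842%) covaried with it in the Dnm2 cohort and 4 of 14841 (0.0270%) in the Bin1 cohort, and since *Arntl* and *Dbp* make up the ratio, their own places among them are fixed. In the Dnm2 cohort the others were *Per3*, *Clock*, *Tcap*, *Nedd9*, *Miga2*, *Dyrk2*, *Slc25a36*, *Mast4*, *Slc30a1*, *Ciart* and *Pnpla3*. In the Bin1 cohort they were *Per3* and *Efr3b*. *Tcap* encodes the titin cap protein of the sarcomere, and it had a slope of -0.19 (adjusted p by edgeR = 0.0488) in log2 CPM per log2 unit of the ratio. These genes were named after their values were seen. Clock genes that passed the pair test with *Dbp* in the Dnm2 cohort did not all pass here. *Cry2* had a slope of -0.19 (adjusted p by edgeR = 0.0718) and *Nr1d2* -0.12 (adjusted p by edgeR = 0.197). A gene that did not pass was therefore not shown to be unrelated to the ratio, and the number of genes that follow it is not known.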
